A study of Homo sapiens with 12 samples.

Results

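Interferon-stimulated effector genes encode the antiviral proteins that cells make in answer to interferon, and 41 of them were measured in 3 established papillary thyroid cancer cell lines with and without Y15. Y15 (1,2,4,5-benzenetetraamine tetrahydrochloride) is a small molecule that inhibits FAK, the focal adhesion kinase. The members were taken by gene symbol from a fixed list that was chosen with earlier results of these data known. Each of the 41 had at least 1 probe on the Illumina bead arrays, out of 20045 named genes. The groups were TPC1, BCPAP and K1 cells given 10 µM Y15, each against untreated cells of the same line. There were 2 arrays in each of 6 groups and 12 arrays in all. The time was taken as 24 hours. The labels give no genotype or vehicle, and they number the samples of a group without saying whether they were separate cultures, so p-values measure the spread between these arrays. Methods that describe plates treated in duplicate, and 24 hours of treatment before collection, do so for another line, TT. The sample titles give no time.

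Interferons bind receptors on the cell surface, and JAK kinases then activate STAT proteins, which with IRF9 bind the interferon-stimulated response element (ISRE) in the promoters of these genes. Their products sense viral RNA, cut or bind it, block viral entry and release, or tag proteins with the ubiquitin-like protein ISG15. Cancer cell lines are known to differ in how much of this set they express without added interferon.

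Signals were taken as quantile normalized log2 values, 1 unit being a doubling, and each gene was read from its brightest probe above background. A probe was above background on an array at a detection p under 0.05, and a gene was tested if this held on both arrays of at least 1 group. Of the 41 members 40 were tested, within 12379 genes in all. CMPK2, a mitochondrial nucleotide kinase, was not above background on any of the 12 arrays and was not tested. Changes are log2 Y15 minus untreated, with ± the standard error (SE) of limma. A gene is called higher or lower at a Benjamini-Hochberg adjusted p under 0.05 from limma, adjusted over the 12379 genes. Between 16004 and 20376 of 47311 probes were above background on an array. The lowest count was on replicate 2 of untreated BCPAP cells, which also had the lowest mean intensity, 215 against 281 to 393 on the other arrays. The 2 Y15 arrays of K1 cells agreed less well with each other than any other pair (r = 0.979 across genes, against 0.993 to 0.998). PAX8 and FOXE1, thyroid transcription factors, were above background on both arrays of every group. NKX2-1, another such factor, was above background on all arrays of BCPAP cells and on no array of TPC1 or K1 cells. Thyroglobulin (TG), TSHR and SLC5A5, which mark differentiated thyroid cells, were not tested because they were not above background on both arrays of any group.

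In BCPAP cells the interferon-stimulated genes rose with Y15. Of 40 tested members 26 were called higher and 0 lower, while 8.65% of all 12379 genes were called higher and 7.6% lower. The median log2 change of the 40 members was 0.48, beside 0.01 for all genes. The median stood at 0.45 with EPSTI1 and TRIM22 and other members dim in a group set at their bounds. On the array of Y15 replicate 1 the members' median was 0.49 and 39 of 40 were above the untreated mean, and on that of replicate 2 it was 0.53 and 38 of 40 were above it. Both Y15 arrays lay above both untreated arrays for 36 of 40 members and below them for 1, IFITM2, while 31.2% of all genes lay above and 27% below. By the fitted change 7 members were called higher and over 2-fold, against 0.598% of all genes (74 of 12379). They were MX1, OAS2, IFI27, IFI44L, ISG15, EPSTI1 and HERC6. EPSTI1 was not above background in untreated BCPAP cells, and its bound, given below, is under 2-fold. Of the 41 members 40 were above background on each of the Y15 arrays of BCPAP, and 30 to 35 on every other array. Of all probes 39.5% and 40.8% were above background on these Y15 arrays, and 33.8% to 43.1% on the others. RSAD2 and USP18 passed the filter only through these Y15 arrays, so the count of 40 is in part set by the filter. By role, 2 of 2 MX genes were called higher, 5 of 6 in the OAS and RNA decay group, 3 of 5 of ISG15 conjugation, 4 of 5 IFI genes, 2 of 4 IFIT genes, 2 of 5 of membrane restriction, 3 of 4 sensors and 5 of 9 other effectors. Fewer members were called in the other lines. In TPC1 cells 2 members were called higher and 2 lower, where 15.3% of all genes were called higher and 16.1% lower, and in K1 cells 3 were called higher and 1 lower, where 4.62% and 5.93% of all genes were. The Y15 arrays of TPC1 lay above both untreated ones for 9 members and below for 12, with 35.9% and 36.7% of all genes, and those of K1 for 10 and 7, with 25.4% and 25.2%. The members' median was -0.01 in TPC1 and -0.0008 in K1, and with centring on detected probes it was 0.18 in TPC1 and 0.11 in K1. With each array centred on its median in place of quantile normalization, the members' median was 0.94 in BCPAP with 30 called higher and 0 lower, and with centring on probes above background on all 12 arrays it was 0.49 with 23 called higher and 0 lower.
These centrings also moved the median change of all genes, to 0.24 in BCPAP, -0.21 in TPC1 and -0.10 in K1 cells with median centring, and to -0.20 in BCPAP, 0.17 in TPC1 and 0.09 in K1 cells with centring on detected probes. The split of all genes in BCPAP was then 2090 higher and 6 lower with the first and 828 higher and 1625 lower with the second, beside 1071 and 941 with quantile normalization. Leaving out 1 array at a time gave members' medians of 0.47 to 0.53 in BCPAP, and the number called moved in both directions. Without the dim replicate 2 of untreated BCPAP cells the median was 0.49.

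**Figure D1:**
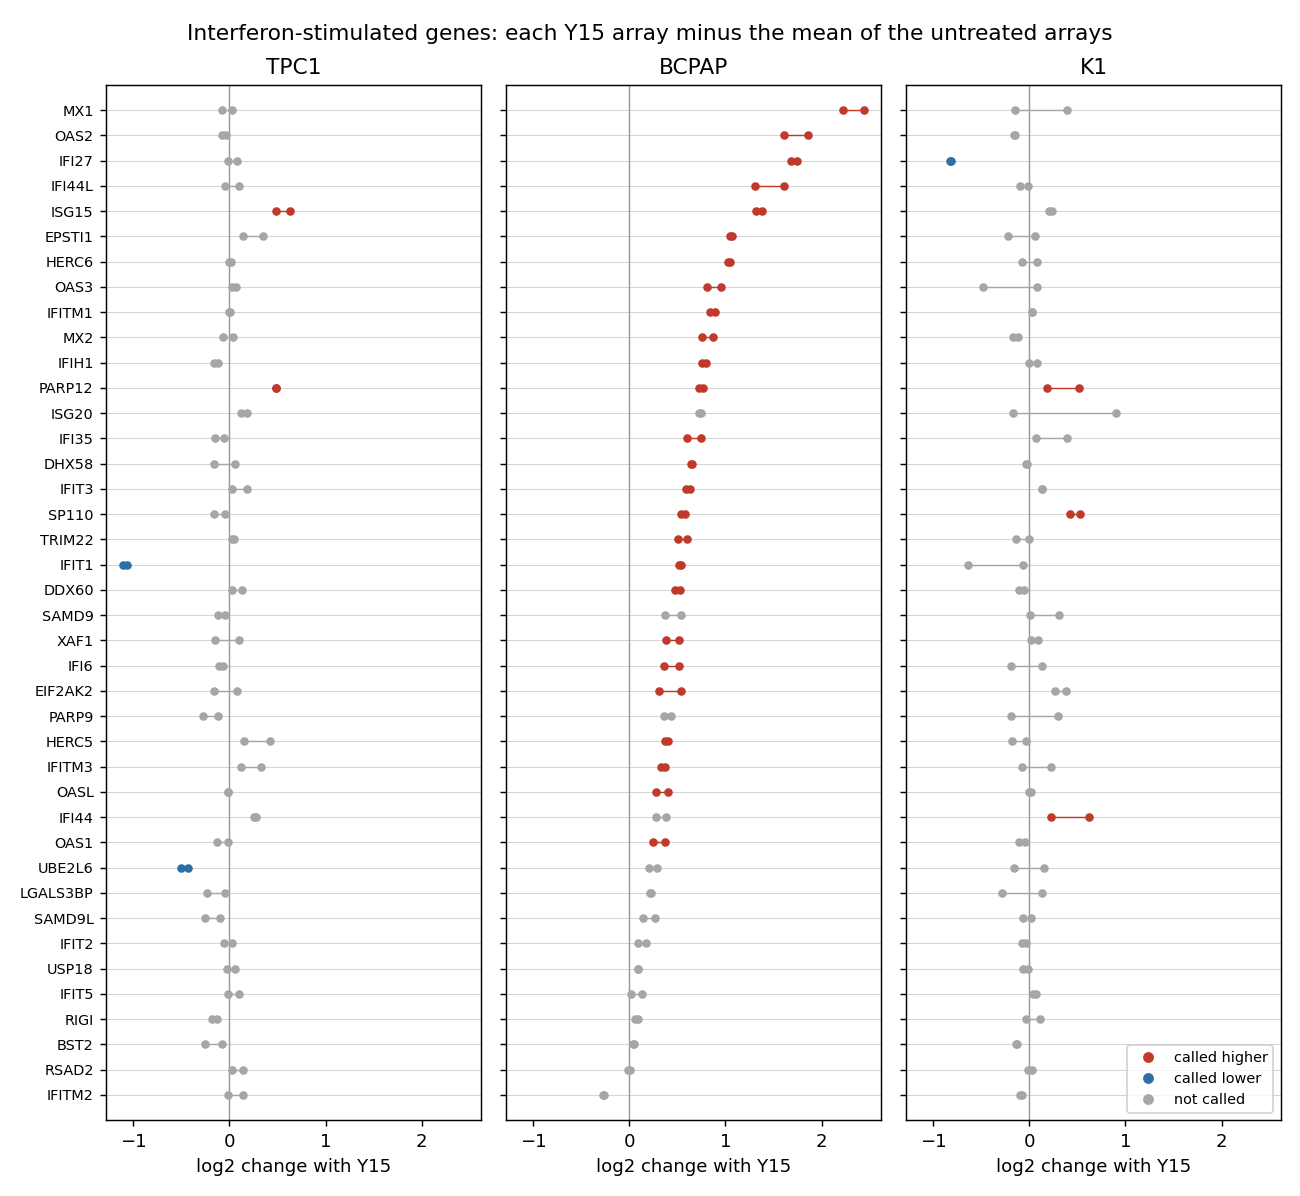
Log2 change of the 40 tested members with Y15 in TPC1, BCPAP and K1 cells, as each Y15 array (point) minus the mean of the 2 untreated arrays of that line, ordered by the change in BCPAP. Red points are members called higher (2, 26 and 3 in the panels from left to right), blue ones members called lower (2, 0 and 1) and grey ones members not called. In BCPAP the points of 38 members lie on the positive side in the mean of both arrays, and in the other panels most cluster around 0.

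Most members with a promoter window, called in BCPAP or not, carried the letters of the ISRE core. RefSeq promoter windows of 300 bases (GRCh38.p14, 250 before and 50 after a transcript start) were given for 33 of the 41 members. They were searched on both strands for the ISRE core, GAAA and a second GAAA with any 2 bases between them, and for the GAS core TTCNNNGAA, an element used in the response to interferon gamma. A stretch of bases can hold both. The ISRE core was in at least 1 window of 24 of 33 members (72.7%), against 4.38% of all 27305 genes in the table. It was in 16 of 21 members called higher in BCPAP (76.2%) and in 8 of 12 members not called or not tested there (66.7%), a difference that was not tested. The GAS core was in 9 of 33 members (27.3%), against 9.38% of all genes. It was in 8 of 21 members called higher in BCPAP (38.1%) and in 1 of 12 not called or not tested there (8.33%), a difference that was not tested either. A match is a description of the sequence and not evidence that a factor binds. The stretches printed here surround a match in 6 members called in BCPAP and, for contrast, in ISG20 and BST2, which were not called there. They run 5′ to 3′ on the gene's strand, with matches to the ISRE core or its reverse complement in capitals.
MX1, chr21:41431829-41431888, plus strand: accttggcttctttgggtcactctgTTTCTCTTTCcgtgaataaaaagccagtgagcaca
IFI27, chr14:94110616-94110675, plus strand: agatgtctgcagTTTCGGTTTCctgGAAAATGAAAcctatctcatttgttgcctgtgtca
ISG15, chr1:1013365-1013424, plus strand: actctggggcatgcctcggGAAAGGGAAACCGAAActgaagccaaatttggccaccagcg
IFI44L, chr1:78620350-78620409, plus strand: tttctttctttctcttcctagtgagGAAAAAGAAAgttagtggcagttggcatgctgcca
EPSTI1, chr13:42992257-42992316, minus strand: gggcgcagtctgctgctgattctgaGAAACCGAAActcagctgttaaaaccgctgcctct
IFIT1, chr10:89392495-89392554, plus strand: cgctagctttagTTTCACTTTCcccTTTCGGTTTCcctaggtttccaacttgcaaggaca
ISG20, chr15:88638922-88638981, plus strand: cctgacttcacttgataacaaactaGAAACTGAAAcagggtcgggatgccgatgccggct
BST2, chr19:17405720-17405779, minus strand: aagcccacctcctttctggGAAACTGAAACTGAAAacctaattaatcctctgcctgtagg
The IFI27 and IFIT1 stretches hold 2 separate matches, and in ISG15 and BST2 2 matches overlap. Windows of HERC6, XAF1 and SP110, called higher in BCPAP, held no ISRE core, as did those of OAS1 and IFI35, which says only that these letters are not in these windows.

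Among the MX proteins, dynamin-like GTPases that trap incoming viruses, MX1 showed the largest change of the 40 members. MX1 had log2 signals of 11.06 and 11.27 in BCPAP cells with Y15, against 8.80 and 8.87 in untreated BCPAP cells. Its log2 change there was 2.33 ± 0.16 (SE, adjusted p = 9.59e-06), the 4th highest of 12379 genes in that line and a 5.02-fold difference. In TPC1 cells MX1 was 6.94 and 6.84 with Y15 and 6.95 and 6.87 untreated, near background, and in K1 cells 9.66 and 9.11 with Y15 and 9.09 and 9.44 untreated. The Y15 and untreated arrays overlapped in both. MX2, which restricts retroviruses, also rose in BCPAP. MX2 had log2 signals of 8.89 and 9.01 in BCPAP cells with Y15, against 8.10 and 8.17 in untreated BCPAP cells. The change was 0.81 ± 0.0831 (SE, adjusted p = 0.000154), and the groups did not overlap. MX2 was 6.69 and 6.79 with Y15 and 6.74 and 6.76 untreated in TPC1 cells, where it was not above background on any array, and 6.75 and 6.81 with Y15 and 6.84 and 7.02 untreated in K1 cells, where it was above background on 1 untreated array. MX1 and ISG15 are also among genes that the study singled out from these same arrays, so their direction in BCPAP is not independent of that choice.

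The OAS enzymes make oligoadenylates that switch on RNA decay, and all 4 OAS genes were called higher in BCPAP. OAS2 changed most. OAS2 had log2 signals of 8.93 and 9.18 in BCPAP cells with Y15, against 7.41 and 7.22 in untreated BCPAP cells. The log2 change was 1.74 ± 0.0963 (SE, adjusted p = 1.73e-06), a 3.33-fold difference, and both Y15 arrays stood well above both untreated arrays. Its other 3 probes above background were also called higher in BCPAP, with smaller log2 changes of 0.37, 0.46 and 0.26. OAS2 was 6.68 and 6.72 with Y15 and 6.74 and 6.77 untreated in TPC1 cells, not above background on any array, and 6.90 and 6.91 with Y15 and 7.0 and 7.12 untreated in K1 cells, with no call in either. OAS3 rose by 0.88 ± 0.143 (SE, adjusted p = 0.00224). OAS1, with the signals 8.19 and 8.06 with Y15 and 7.75 and 7.88 untreated in BCPAP cells, rose by 0.31 ± 0.0799 (SE, adjusted p = 0.023), and its 2 other probes above background by 0.45 (adjusted p = 0.00489) and 0.64 (adjusted p = 0.000181). OASL, which lacks the synthase activity and aids RNA sensing, rose by 0.34 ± 0.0873 (SE, adjusted p = 0.0221), while its other probe was not called, at a log2 change of -0.13 (adjusted p = 0.35). EIF2AK2 (PKR), a kinase that stops translation when it meets double-stranded RNA, rose by 0.42 ± 0.111 (SE, adjusted p = 0.0245). ISG20, an exonuclease that degrades RNA, had 9.78 and 9.81 with Y15 and 8.99 and 9.12 untreated in BCPAP cells, a log2 change of 0.74 ± 0.238 (SE, adjusted p = 0.0576) that was not called. Its standard error was the widest of the 40 members. limma draws that error from all 6 groups, and the widest spread was between the K1 Y15 arrays, 8.66 and 7.60. In TPC1 and K1 cells none of these 6 genes was called.

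The ISG15 system rose in part. ISG15 is joined to proteins by UBE2L6 and the ligase HERC5, and USP18 removes it. ISG15 had log2 signals of 11.58 and 11.64 in BCPAP cells with Y15, against 10.06 and 10.47 in untreated BCPAP cells. The log2 change was 1.35 ± 0.117 (SE, adjusted p = 6.62e-05), a 2.54-fold difference. In TPC1 cells ISG15 was 9.31 and 9.46 with Y15 and 8.80 and 8.86 untreated, a call of 0.56 ± 0.117 (SE, adjusted p = 0.00381) that was lost with median centring, as was that of PARP12 in this line. In K1 cells it was 9.03 and 9.05 with Y15 and 8.89 and 8.75 untreated, where the change of 0.22 (adjusted p = 0.272) was not called. HERC6, a relative of HERC5 that joins ISG15 to proteins in mice, rose in BCPAP only among the 3 lines' calls, and the effect differed between the lines (adjusted p = 0.000206, F test of limma). HERC6 had log2 signals of 8.97 and 8.95 in BCPAP cells with Y15, against 8.03 and 7.82 in untreated BCPAP cells. The change was 1.03 ± 0.0837 (SE, adjusted p = 3.86e-05), whereas HERC6 was 7.82 and 7.81 with Y15 and 7.81 and 7.81 untreated in TPC1 cells and 7.96 and 7.80 with Y15 and 7.90 and 7.86 untreated in K1 cells. HERC5 rose by a smaller 0.39 ± 0.102 (SE, adjusted p = 0.0239) in BCPAP, a call that held in 18 of 23 other settings and ended when any 1 of the 4 BCPAP arrays was left out. UBE2L6 moved the other way in TPC1 cells, with 9.90 and 9.97 with Y15 and 10.41 and 10.39 untreated, and changed by -0.47 ± 0.095 (SE, adjusted p = 0.00313), a call as lower. A second probe of UBE2L6 was also called lower there, at -0.36 (adjusted p = 0.00402). In BCPAP it had 11.14 and 11.06 with Y15 and 10.85 and 10.85 untreated, a log2 change of 0.25 (adjusted p = 0.101) that was not called. USP18 was above background in 1 group only, BCPAP cells with Y15, at 6.89 and 6.89 with Y15 and 6.84 and 6.75 untreated, and was not called, at a log2 change of 0.093 (adjusted p = 0.4).

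IFI27, a small mitochondrial protein, went in opposite directions in 2 lines. IFI27 had log2 signals of 12.36 and 12.42 in BCPAP cells with Y15, against 10.68 and 10.68 in untreated BCPAP cells. The change was 1.71 ± 0.0753 (SE, adjusted p = 2.77e-07), a 3.28-fold difference with the smallest adjusted p of the members. In K1 cells IFI27 was 9.90 and 9.92 with Y15 and 10.80 and 10.66 untreated, and it fell, with a log2 change of -0.82 ± 0.0753 (SE, adjusted p = 0.000146). The K1 call ended with median centring (adjusted p = 0.0621) and with the 4 K1 arrays alone (adjusted p = 0.102). In TPC1 cells it was 8.90 and 9.0 with Y15 and 8.87 and 8.96 untreated, with overlapping arrays and no call. The effect of Y15 on IFI27 differed between BCPAP and K1 by 2.53 ± 0.106 (SE, adjusted p = 8.51e-07) and between TPC1 and K1 by 0.85 ± 0.106 (SE, adjusted p = 0.000604). IFI44L and IFI44 are neighbours on chromosome 1 and encode related cytoplasmic proteins. IFI44L had log2 signals of 9.64 and 9.94 in BCPAP cells with Y15, against 8.38 and 8.29 in untreated BCPAP cells. IFI44L changed by 1.46 ± 0.0978 (SE, adjusted p = 8.46e-06) in BCPAP, and its second, dimmer probe by 0.29 (adjusted p = 0.0222). It was 6.88 and 6.74 with Y15 and 6.79 and 6.77 untreated in TPC1 cells and 6.71 and 6.79 with Y15 and 6.79 and 6.82 untreated in K1 cells, and was above background on 1 of these arrays. IFI44 behaved otherwise. Its Y15 arrays stood above the untreated ones in all 3 lines, but the call was made in K1 alone. It had 7.64 and 7.67 with Y15 and 7.41 and 7.37 untreated in TPC1 cells, 10.59 and 10.69 with Y15 and 10.37 and 10.25 untreated in BCPAP cells and 8.28 and 7.89 with Y15 and 7.74 and 7.59 untreated in K1 cells. The changes were 0.27 (adjusted p = 0.102) in TPC1, 0.33 (adjusted p = 0.0734) in BCPAP and 0.42 (adjusted p = 0.0385) in K1, and no difference between the lines was called (adjusted p = 0.759). The K1 call held in 8 of 22 other settings, and it also ended with the 4 K1 arrays alone (adjusted p = 0.287), which are not counted among them. IFI35, which binds other interferon-induced proteins, rose in BCPAP. IFI35 had log2 signals of 9.86 and 10.00 in BCPAP cells with Y15, against 9.21 and 9.31 in untreated BCPAP cells. The change was 0.67 ± 0.105 (SE, adjusted p = 0.00182), against no call in TPC1 (8.22 and 8.31 with Y15 and 8.33 and 8.41 untreated) or K1 (8.65 and 8.33 with Y15 and 8.21 and 8.31 untreated). IFI6, a membrane protein of the endoplasmic reticulum, rose by 0.44 ± 0.123 (SE, adjusted p = 0.0325) in BCPAP on its brightest probe and by 1.34 (adjusted p = 6.53e-06) on its second.

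**Figure D2:**
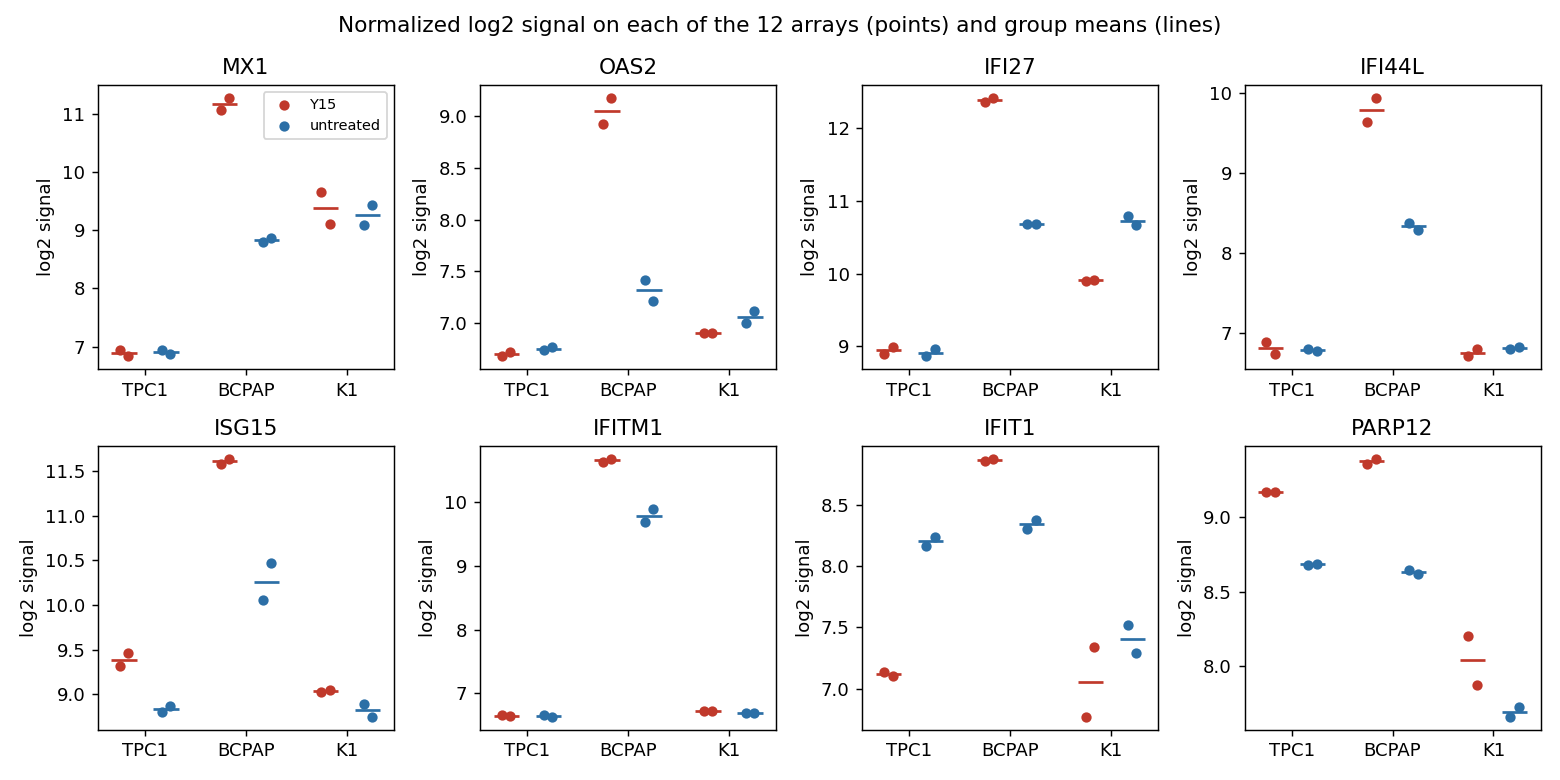
Log2 signal of 8 members on each of the 12 arrays (points), with a line at each group mean, for Y15 (red) and untreated cells (blue) of each line. MX1, OAS2, IFI27, IFI44L, ISG15 and IFITM1 are highest in BCPAP cells with Y15, IFI27 is lower with Y15 in K1, IFIT1 is lower with Y15 in TPC1, and PARP12 is higher with Y15 in each line. The vertical axes differ between panels and do not start at 0.

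The IFIT proteins bind foreign RNA and block its translation, and IFIT1 was called in opposite directions in 2 lines. IFIT1 had log2 signals of 7.14 and 7.10 in TPC1 cells with Y15, against 8.17 and 8.24 in untreated TPC1 cells. It fell in TPC1, with a log2 change of -1.08 ± 0.146 (SE, adjusted p = 0.000219), which makes it 2.12-fold lower with Y15. IFIT1 had log2 signals of 8.86 and 8.88 in BCPAP cells with Y15, against 8.31 and 8.38 in untreated BCPAP cells. There it rose by 0.53 ± 0.146 (SE, adjusted p = 0.0309), a call that held in 13 of 23 other settings. In K1 cells IFIT1 had 6.77 and 7.34 with Y15 and 7.52 and 7.29 untreated, with 1 Y15 array at background and no call. The difference between BCPAP and TPC1 in the effect was 1.61 ± 0.206 (SE, adjusted p = 0.000438). IFIT3, which stabilises IFIT1, was not called in TPC1. IFIT3 had log2 signals of 8.41 and 8.36 in BCPAP cells with Y15, against 7.74 and 7.81 in untreated BCPAP cells. Its change in BCPAP was 0.61 ± 0.077 (SE, adjusted p = 0.000548), against 7.40 and 7.24 with Y15 and 7.19 and 7.23 untreated in TPC1 cells and 7.19 and 7.20 with Y15 and 7.01 and 7.12 untreated in K1 cells, with no call in either. Of its 2 other probes above background 1 was called higher in BCPAP, at 0.30 (adjusted p = 0.0393), and 1 was not, at 0.28 (adjusted p = 0.106). IFIT2 and IFIT5 were not called in any line, and IFIT5 was not above background on any array of K1 cells.

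Of the 5 genes whose products guard membranes 2 were called higher in BCPAP, IFITM1 and IFITM3. IFITM2, IFITM1 and IFITM3 stand next to each other on chromosome 11 and stop enveloped viruses from fusing with the cell. IFITM1 had log2 signals of 10.63 and 10.68 in BCPAP cells with Y15, against 9.69 and 9.89 in untreated BCPAP cells. IFITM1 rose by 0.87 ± 0.0764 (SE, adjusted p = 6.62e-05), and was not above background on any array of TPC1 (6.66 and 6.64 with Y15 and 6.66 and 6.63 untreated) or K1 (6.72 and 6.72 with Y15 and 6.70 and 6.68 untreated). IFITM3 had 12.90 and 12.85 with Y15 and 12.56 and 12.50 untreated in BCPAP cells and rose by 0.35 ± 0.0996 (SE, adjusted p = 0.0359), a call that held in 13 of 23 other settings. IFITM2 had 12.72 and 12.72 with Y15 and 12.89 and 13.09 untreated in BCPAP cells, the 1 member with both Y15 arrays below the untreated ones, and was not called at a log2 change of -0.27 (adjusted p = 0.0986). With median centring all 5 membrane genes had a positive change in BCPAP, IFITM2 included. IFITM2 and IFITM3 have nearly identical sequences, so their probes may share signal. In TPC1 cells IFITM2 was 11.68 and 11.83 with Y15 and 11.65 and 11.74 untreated and IFITM3 11.50 and 11.70 with Y15 and 11.36 and 11.39 untreated. In K1 cells IFITM2 was 10.26 and 10.25 with Y15 and 10.21 and 10.48 untreated and IFITM3 10.38 and 10.09 with Y15 and 10.16 and 10.17 untreated, with no call in either line. BST2 (tetherin), which holds budding virus on the cell, was above background on both arrays of a group only in BCPAP and was not called in any line. It had 8.73 and 8.74 with Y15 and 8.67 and 8.71 untreated there, a log2 change of 0.05 ± 0.0776 (SE, adjusted p = 0.74), 6.79 and 6.61 with Y15 and 6.87 and 6.85 untreated in TPC1 cells and 6.68 and 6.67 with Y15 and 6.75 and 6.87 untreated in K1 cells. RSAD2 (viperin), which makes a chain-terminating nucleotide, was above background on both arrays only of BCPAP cells with Y15 and was not called in any line.

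Sensors of double-stranded RNA rose in BCPAP, with the exception of RIGI. IFIH1 (MDA5), which detects long double-stranded RNA, changed most. IFIH1 had log2 signals of 8.44 and 8.39 in BCPAP cells with Y15, against 7.73 and 7.54 in untreated BCPAP cells. The change was 0.78 ± 0.0809 (SE, adjusted p = 0.000172), against 7.60 and 7.64 with Y15 and 7.81 and 7.70 untreated in TPC1 cells and 7.27 and 7.19 with Y15 and 7.20 and 7.18 untreated in K1 cells with no call. DHX58 (LGP2), which assists IFIH1, had 7.82 and 7.83 with Y15 and 7.39 and 6.97 untreated in BCPAP cells and rose by 0.65 ± 0.121 (SE, adjusted p = 0.00472). DDX60, a helicase linked to RIGI signalling, rose by 0.50 ± 0.0845 (SE, adjusted p = 0.0028). RIGI itself had 6.99 and 7.02 with Y15 and 7.14 and 6.73 untreated in BCPAP cells, where the arrays overlapped and no call was made at a log2 change of 0.072 (adjusted p = 0.721). With centring on detected probes 1 of the 4 sensors was called higher in BCPAP in place of 3.

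Of the 9 other effectors tested 5 rose in BCPAP. EPSTI1, an interferon-induced protein of little known function, had 7.84 and 7.86 with Y15 and 6.77 and 6.81 untreated there, and untreated BCPAP cells were not above background, so that it was at least 1.91-fold higher with Y15, with a fitted log2 change of 1.06 ± 0.0983 (SE, adjusted p = 7.82e-05). That bound sets the mean of the Y15 arrays against the lowest signal above background on each untreated array. EPSTI1 was 7.18 and 6.98 with Y15 and 6.87 and 6.79 untreated in TPC1 cells and 7.64 and 7.36 with Y15 and 7.56 and 7.59 untreated in K1 cells, not called. TRIM22, a ubiquitin ligase, was likewise not above background in untreated BCPAP cells, and at least 1.25-fold higher with Y15. It had 7.29 and 7.20 with Y15 and 6.75 and 6.63 untreated in BCPAP cells, with a fitted change of 0.55 ± 0.0814 (SE, adjusted p = 0.00137), 7.05 and 7.06 with Y15 and 6.95 and 7.08 untreated in TPC1 cells and 8.57 and 8.71 with Y15 and 8.72 and 8.69 untreated in K1 cells. With centring on detected probes its BCPAP change was 0.095 and was not called (adjusted p = 0.634). XAF1, which binds the apoptosis inhibitor XIAP, rose by 0.45 ± 0.0999 (SE, adjusted p = 0.0117), and its second probe was not called, at 0.14 (adjusted p = 0.256).

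PARP12, which attaches ADP-ribose to proteins and curbs viral translation, was the 1 member called higher in all 3 lines. PARP12 had log2 signals of 9.36 and 9.40 in BCPAP cells with Y15, against 8.65 and 8.62 in untreated BCPAP cells. PARP12 had log2 signals of 9.17 and 9.17 in TPC1 cells with Y15, against 8.68 and 8.69 in untreated TPC1 cells. PARP12 had log2 signals of 8.20 and 7.87 in K1 cells with Y15, against 7.66 and 7.72 in untreated K1 cells. The changes were 0.75 ± 0.095 (SE, adjusted p = 0.000591) in BCPAP, 0.49 ± 0.095 (SE, adjusted p = 0.00236) in TPC1 and 0.35 ± 0.095 (SE, adjusted p = 0.0399) in K1, and no difference between the lines was called (adjusted p = 0.121). The K1 call held in 5 of 22 other settings, and it also ended with the 4 K1 arrays alone (adjusted p = 0.297), which are not counted among them. SP110, a nuclear body protein, was called in BCPAP and K1. SP110 had log2 signals of 9.70 and 9.66 in BCPAP cells with Y15, against 9.15 and 9.10 in untreated BCPAP cells. SP110 had log2 signals of 8.61 and 8.50 in K1 cells with Y15, against 8.07 and 8.08 in untreated K1 cells. The changes were 0.56 ± 0.0739 (SE, adjusted p = 0.000758) in BCPAP and 0.48 ± 0.0739 (SE, adjusted p = 0.00297) in K1, while SP110 in TPC1 had 8.65 and 8.77 with Y15 and 8.85 and 8.78 untreated and no call. The K1 call of SP110 ended with median centring (adjusted p = 0.544) and with the 4 K1 arrays alone (adjusted p = 0.135). A second probe of SP110 gave 0.61 (adjusted p = 0.000436) in BCPAP and 0.43 (adjusted p = 0.00577) in K1, and another gave 0.33 (adjusted p = 0.0267) in BCPAP and, not called, 0.14 (adjusted p = 0.36) in K1. The fourth was not called, at -0.16 (adjusted p = 0.221) in BCPAP and -0.05 (adjusted p = 0.771) in K1. PARP9, SAMD9, SAMD9L and LGALS3BP were not called in any line, with BCPAP log2 changes of 0.39 (adjusted p = 0.0599), 0.46 (adjusted p = 0.0848), 0.20 (adjusted p = 0.197) and 0.22 (adjusted p = 0.249) in that order.

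For 20 of 40 members the lines differed in their change with Y15 by the F test of limma, against 18.5% of all genes. In pairs of lines, 22 members had a higher effect in BCPAP than in TPC1 and 0 a lower one (9.39% and 7.94% of all genes). Against K1 there were 16 with a higher effect in BCPAP and 0 with a lower one (4.36% and 2.88%). Between TPC1 and K1 there were 2, IFI27 with a higher effect and SP110 with a lower effect in TPC1 (3.98% and 4.17%). These comparisons share arrays. In TPC1 5 members were not above background on any array, and in K1 4 members were not, IFITM1 and USP18 among them in both. The F test called 15 members with neqc background correction and 30 with median centring, and its count also moved when 1 array was left out.

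Untreated cells of the 3 lines already differed in these genes. Of 40 members 31 differed by the F test of limma, against 63.9% of all genes, and BCPAP was the highest line for 22 of the 31, K1 for 6 and TPC1 for 3. Among all genes called, BCPAP was highest for 36.4%, TPC1 for 36.4% and K1 for 27.2%. K1 was the lowest line for 17 of the 31, TPC1 for 10 and BCPAP for 4, and the shares of all genes were not computed for the lowest line. Untreated BCPAP cells were above untreated K1 cells for 24 members and below for 5 (23.5% and 24.7% of all genes). They were above untreated TPC1 cells for 22 and below for 4 (24.9% and 28.1%). Between untreated TPC1 and K1 cells 11 members were higher in TPC1 and 6 lower (20% and 17.6%). IFITM1 had the widest range. Its untreated BCPAP signals were at least 7.66-fold above those of TPC1 and at least 7.61-fold above those of K1, which were not above background. IFI44 was higher in untreated BCPAP than in TPC1 by 2.92 and than in K1 by 2.64 on the log2 scale, and the difference of TPC1 and K1 was not called (adjusted p = 0.0844). For IFITM2 and IFITM3 the order was BCPAP, TPC1 and K1, with each step called. MX1 was highest in K1, then BCPAP (log2 difference to K1 -0.43, adjusted p = 0.0454) and lowest in TPC1. IFI27 was not called between BCPAP and K1 (log2 difference -0.051, adjusted p = 0.61), and TPC1 differed from K1 by -1.82 and from BCPAP by -1.77. TRIM22 was highest in K1, at least 3.45-fold above untreated BCPAP. BST2 was higher in BCPAP than in TPC1 by 1.83 and than in K1 by 1.88, with no call between those 2 lines (adjusted p = 0.651).

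**Figure D3:**
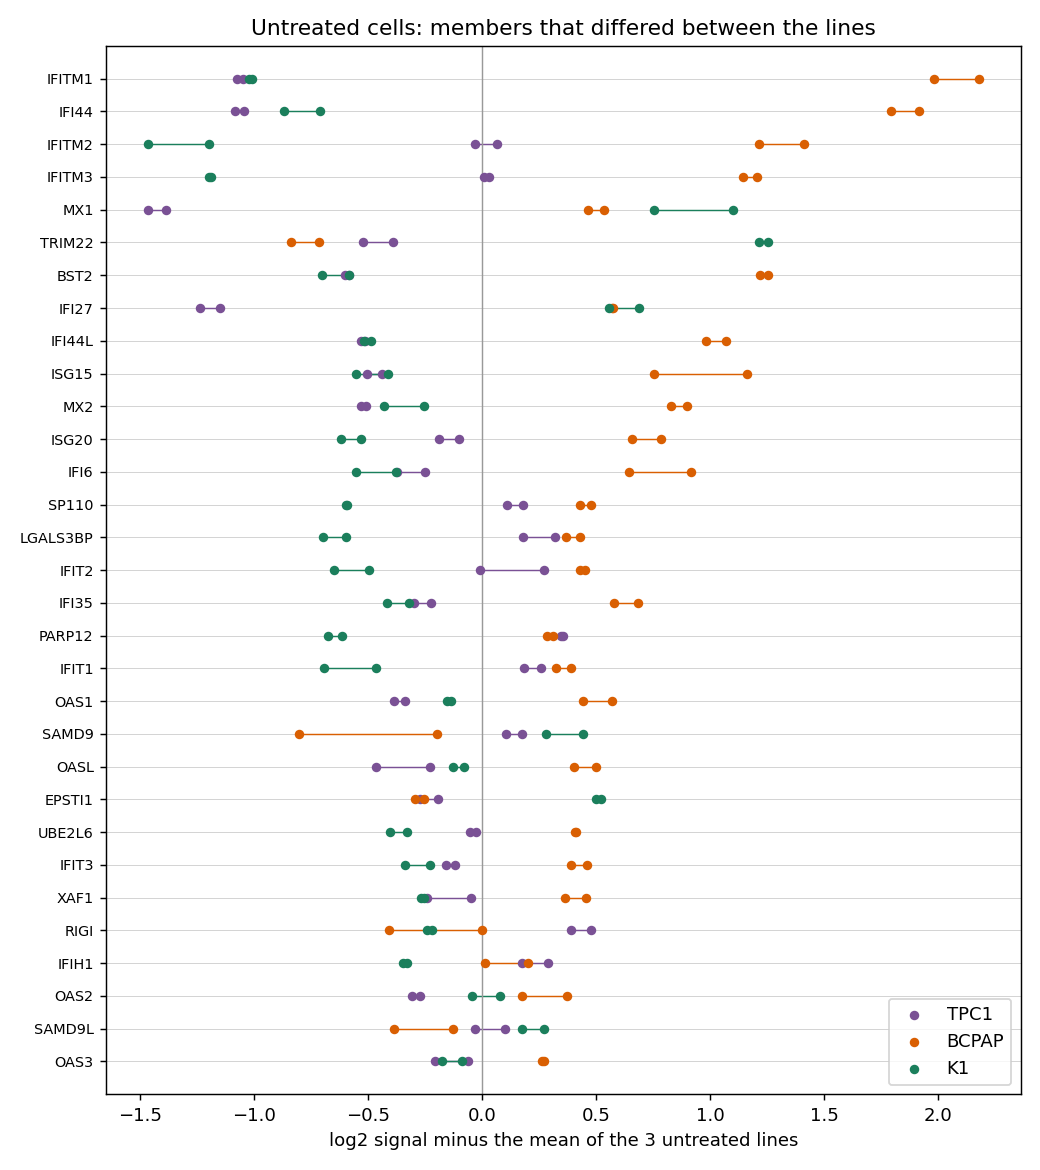
Untreated log2 signal of the 31 members that differed between the lines, as each array (point, 2 per line) minus the mean of the 3 line means, ordered by the range between the lines. BCPAP points (orange) lie farthest to the right for 22 members, K1 points (green) for 6 and TPC1 points (purple) for 3.

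Several members are neighbours in the genome, and their changes in BCPAP differed in size. OAS1, OAS3 and OAS2 lie in that order on chromosome 12 with no protein-coding gene between them, and all were called higher in BCPAP with log2 changes of 0.31, 0.88 and 1.74. MX2 and MX1 on chromosome 21 changed by 0.81 and 2.33, and HERC6 and HERC5 on chromosome 4 by 1.03 and 0.39. On chromosome 10 IFIT3 (0.61) and IFIT1 (0.53) were called and IFIT2 (0.13) and IFIT5 (0.075) were not. CMPK2 and RSAD2 lie together on chromosome 2, the first not above background and the second not called, and on chromosome 7 SAMD9 and SAMD9L were not called. These are values of the brightest probes, and their order turns with the probe, since other probes gave 0.45 and 0.64 for OAS1 and 0.37, 0.46 and 0.26 for OAS2. They were not tested against each other.

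Some regulators of the response were also called. In BCPAP 5 of 23 tested regulators were called higher and 2 lower, while TPC1 had 3 higher and 4 lower and K1 had 2 of each. The 2 called lower in BCPAP were PIAS1 and the JAK kinase TYK2. The shares over all genes were 8.65% higher and 7.6% lower for BCPAP, 15.3% and 16.1% for TPC1, and 4.62% and 5.93% for K1. IRF9, a DNA-binding factor of the response, and IRF7, a driver of interferon genes, rose most in BCPAP. IRF9 had log2 signals of 10.44 and 10.35 in BCPAP cells with Y15, against 9.0 and 8.99 in untreated BCPAP cells. The change was 1.40 ± 0.0998 (SE, adjusted p = 1.25e-05), while IRF9 fell in TPC1, with -0.37 (adjusted p = 0.0151). IRF7 had log2 signals of 9.88 and 10.01 in BCPAP cells with Y15, against 8.48 and 8.61 in untreated BCPAP cells. The change was 1.40 ± 0.125 (SE, adjusted p = 6.88e-05), with no call in TPC1 or K1. The study singled out IRF7 and IRF9 too from these arrays. The adaptor MYD88 rose by 0.74 (adjusted p = 0.000146) in BCPAP and 0.29 (adjusted p = 0.033) in K1, and TRIM25, which activates RIGI, by 0.61 (adjusted p = 0.00175) in BCPAP and 0.75 (adjusted p = 0.000132) in TPC1. The DNA sensor IFI16 rose in all 3 lines, by 0.93 (adjusted p = 7.16e-05) in BCPAP, 0.53 (adjusted p = 0.000694) in TPC1 and 0.34 (adjusted p = 0.0278) in K1. The kinase JAK1 was called in TPC1, where it fell, with -0.74 (adjusted p = 6.73e-05).
Of 10 interferon genes with a probe 2, IFNE and IFNW1, were above background in a group, and neither was called in any line. IFNB1, IFNA1, IFNG and IFNL1 were not above background on both arrays of any group. All 6 receptor chains were tested. IFNAR1, of the type I receptor, fell in BCPAP, with -0.55 (adjusted p = 0.00449), and rose in TPC1, with 0.35 (adjusted p = 0.0203). IFNGR2 of the type II receptor fell in BCPAP, with -0.51 (adjusted p = 0.005). The chain IL10RB rose in K1, with 0.59 (adjusted p = 0.0194), and had no call in BCPAP or TPC1. IFNAR2, IFNGR1 and IFNLR1 were not called in any line. The leukocyte markers PTPRC, CD3E, ITGAM and LYZ were not above background on both arrays of any group, and 3 of 7 (CD14, CD68 and HLA-DRA) were in every group. CD68 was called higher in BCPAP (0.85) and TPC1 (0.56). CD14 went the other way, called lower in K1 (-1.16) and not called in BCPAP (-0.33) or TPC1 (-0.32). HLA-DRA was not called in any line. The mean log2 signal of the 7 markers was 7.38 to 7.39 in BCPAP cells with Y15 and 7.28 to 7.29 in untreated BCPAP cells, and its part in the result was not tested.

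**Figure D4:**
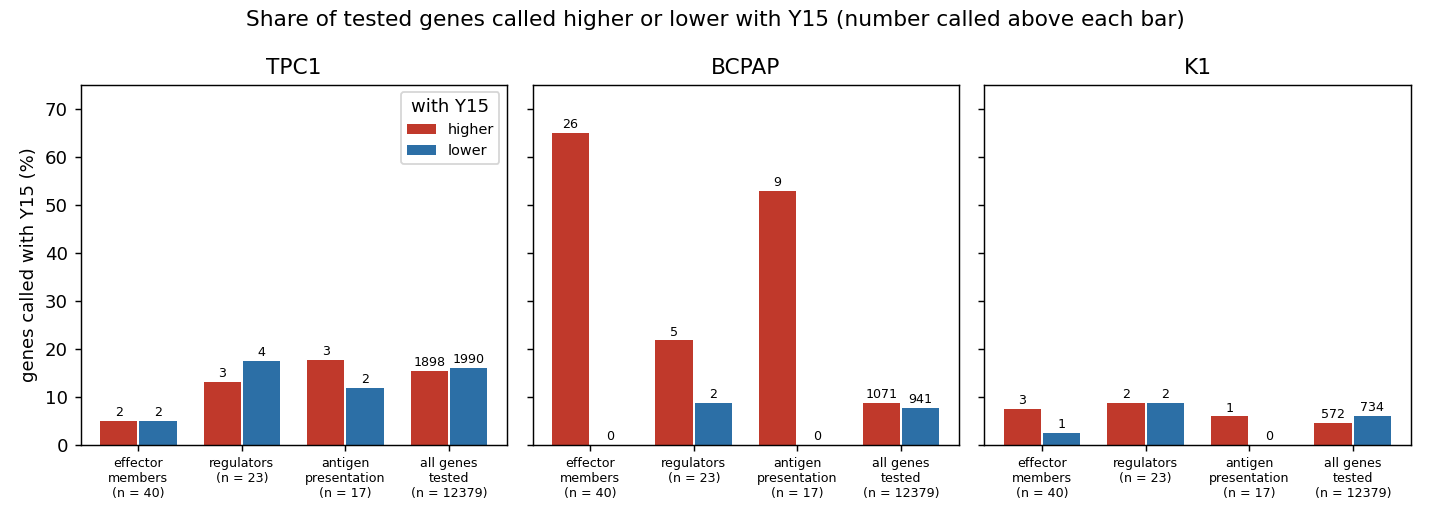
Share of tested genes called higher (red) or lower (blue) with Y15 in each line, for the 40 effector members, 23 regulators, 17 antigen presentation genes and all 12379 genes, with the number called above each bar. The effector bar in BCPAP (26 of 40) stands highest, next to 9 of 17 antigen presentation genes, and the all-gene bars in BCPAP stand at 8.65% and 7.6%.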

How the data were processed

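RNA of the 12 samples was hybridised to Illumina bead arrays, and the authors deposited a table of non-normalized probe intensity values with a detection p-value for each probe and array, made with GenomeStudio (version not given in the sources used here), and a table of normalized log2 values. The methods name HumanRef-8 arrays while the probe annotation is of an HT-12 platform, so the array type stays unsettled. Of 47323 probes 12 held no values. The intensities were log2 transformed and quantile normalized here, after the methods, and equalled the deposited log2 table to within 4.99992e-09, so its scale is known. Of the other probes 30109 had 1 gene symbol, 8 several and 17194 none. Genes were tested with limma 3.58.1 in R 4.3.3 (lmFit and eBayes, 6 groups over 12 arrays), reading each gene from its brightest probe above background (detection p under 0.05 on both arrays of at least 1 group), with Benjamini-Hochberg adjustment over 12379 genes. Values of other probes of a gene were adjusted over all probes above background. Where a probe was not above background on any array of a group, a fold is given as at least the stated size.

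The members, gene lists and tests were chosen with earlier results of these data known. Values on every array are given for up to 16 members called in a line, by smallest adjusted p, and for the 8 with the widest range between untreated lines, and for other listed genes up to 6 called per list. Marker lists covered thyroid, epithelial, leukocyte, fibroblast and endothelial cells. Alternatives were 3 other normalizations, the deposited log2 values, no filter on dim probes, the mean of a gene's probes and array weights. Others were each line alone, the study's rule (unadjusted p under 0.05 and 1.2-fold), a replicate block and leaving out each array. Counts of settings in which a call held include the deposited values and the study's rule, which could not end one. The test was checked on simulated data. The labels number replicates without stating a pairing. Array number is small, 2 per group, which limits the precision, and no slide or scan date was given.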

Additional observations from a re-analysis of the deposited data

Results flagged for a closer look

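The effect of Y15 differed between TPC1, BCPAP and K1 cells for 20 members by the F test of limma on the interaction, and each is given here with its adjusted p. The smallest were IFI27 (4.98e-07), OAS2 (1.00e-05), IFI44L (5.71e-05), MX1 (8.05e-05) and HERC6 (0.000206). Then came IFITM1 (0.000435), MX2 (0.000547), IFIH1 (0.000718), EPSTI1 (0.000759) and IFIT1 (0.00118). ISG15 (0.00232), SP110 (0.00251), TRIM22 (0.00734), OAS3 (0.00831) and UBE2L6 (0.0102) followed. The others were IFI35 (0.0120), IFIT3 (0.0123), DDX60 (0.0149), DHX58 (0.0213) and OAS1 (0.0453). Groups of 2 arrays are too small for a test of single outlying arrays.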

How the results depend on the processing

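No value changed sign with a call on both sides, and 15 of the 26 BCPAP calls held in all 23 other settings. The deposited log2 values and the study's rule are among these settings and could not end a call. With median centring 0 members were called higher in TPC1 (1.83% of all genes) and 0 higher and 0 lower in K1 (0.0565% and 1.07%). The medians were then 0.94 in BCPAP, -0.21 in TPC1 and -0.090 in K1. With centring on detected probes 7 were called higher in TPC1 and 1 in K1 (17.7% and 1.60% of all genes), and the medians were 0.18 in TPC1 and 0.11 in K1. With neqc the BCPAP median was 0.71 and 1 member was called higher in K1 (2.59% of all genes). With the mean of a gene's probes the medians were 0.000767 in TPC1 and 0.41 in BCPAP. With array weights 6 were called higher in TPC1 and 1 in K1 (22.8% and 2.15% of all genes). By the study's rule BCPAP had 30 members higher and 1 lower (11.1% and 10.6% of all genes). TPC1 had 4 and 2 (15.9% and 16.5%), and K1 had 4 and 2 (8.64% and 9.73%). With the arrays of a line alone 6 were called higher in TPC1 (22.6% of all genes), and 0 higher and 0 lower in K1, where limma called 0 of all genes (1995 at an unadjusted p under 0.05). The causes were not tested. Leaving out 1 array left a group of 1 array, and the number of members called then changed with the array. The members' median in K1 was -0.029 without its Y15 replicate 1 and 0.019 without its Y15 replicate 2. In each line the share of all genes called also moved with the array that was left out. Then the medians ran from 0.47 to 0.53 in BCPAP, -0.016 to -0.0017 in TPC1 and -0.029 to 0.023 in K1 cells. The counts of the F tests between untreated lines and of the Y15 effect moved too.
Same-numbered arrays deviated together with a correlation of -0.182 in BCPAP, 0.193 in TPC1 and -0.00996 in K1, so the numbers were not taken as pairs. With a replicate block over the 12 arrays 26 members were called higher in BCPAP, 2 in TPC1 and 2 in K1, and with a replicate block within each line 25, 3 and 2. Pairing the BCPAP arrays crosswise, an alternative added after seeing the data, gave 29 called higher in BCPAP (8.38% of all genes).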

Other observations

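Antigen presentation genes, another group that interferon raises, rose with Y15 in BCPAP in part. BCPAP had 9 of 17 called higher and 0 lower, TPC1 had 3 higher and 2 lower, and K1 had 1 higher and 0 lower. The shares over all genes were 8.65% higher and 7.6% lower for BCPAP, 15.3% and 16.1% for TPC1, and 4.62% and 5.93% for K1. TAP2, one chain of the peptide transporter, was called higher in all 3 lines, with log2 changes of 0.88 in BCPAP (adjusted p = 6.88e-05), 1.10 in TPC1 (adjusted p = 2.44e-06) and 0.40 in K1 (adjusted p = 0.0101), and its partner TAP1 in TPC1 (0.78) and BCPAP (0.52). PSME1, an activator of the proteasome, fell in TPC1 (-0.42) and rose in BCPAP (0.28). Of 6 interferon-induced chemokines 2 were tested, and CCL2, which draws monocytes, was called lower in TPC1 (-0.67) and K1 (-0.54). The thyroid transcription factor PAX8 was called lower with Y15 in all 3 lines, with log2 changes of -0.35 in BCPAP, -0.80 in TPC1 and -0.48 in K1. FOXE1 was called lower in TPC1 (-0.64) and NKX2-1 in BCPAP (-0.35).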
